A study of Homo sapiens with 18 samples.

Results

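AML1-ETO, the fusion protein made by the t(8;21) translocation of acute myeloid leukaemia, was mapped by CUT&RUN at the genes of 9 transcription factors and bridging proteins that form complexes with it or share its sites. The genes were those of the E proteins TCF3 (also called E2A), TCF4 and TCF12 (also called HEB), of LMO2 and LDB1, of the basic helix-loop-helix factors LYL1 and TAL1, and of the ETS factors ERG and FLI1. They are 9 of the 19974 protein-coding genes annotated on chromosomes 1 to 22 and X. A peak was assigned to a gene when any of its bases fell between the RefSeq ends of that gene (GRCh38), extended by 10 kb on each side. Gene ends were used for this, not measured values.

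Kasumi-1 is an established leukaemia cell line that carries the translocation, and all 18 libraries came from a Kasumi-1 line whose AML1-ETO carries a Flag tag. Cells were infected, sorted as viable GFP-positive cells at 3 days, and used either as control or with knockdown (KD) of the microRNA miR-130a. Each condition was profiled with an antibody against ETO, an antibody against Flag or mouse IgG, with 3 libraries in each of the 6 groups, planned at about 40 M reads each. The labels name neither the control construct nor whether the 3 libraries of a group came from separate cultures, and they do not say whether the tag sits on the line's own fusion gene. In CUT&RUN the antibody brings a nuclease to its target, and the DNA cut free around bound sites is sequenced.

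The deposited values were peak positions. For each condition there was 1 peak list per antibody (14264 to 25961 peaks), 1 list of sites called by both antibodies (dual-antibody peaks), and, over both conditions, a shared list, a control-unique list and a knockdown-unique list of such sites. No peak height, score or value per library accompanied them, so depth is unknown, no spread between libraries could be computed and no difference between conditions could be tested. The lists hold no expression values, so neither the level of miR-130a nor the identity of the cells was checked. Longer lists yield more calls, and at the whole-list level the number of anti-ETO peaks in knockdown was 1.58 times that in control, against 1.12 times for anti-Flag.

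E proteins bind the E-box sequence in DNA as dimers, alone or with a tissue-restricted partner such as TAL1 or LYL1. LMO2 does not bind DNA itself and joins such dimers to LDB1, which can bring distant sites together by binding to itself. In t(8;21) cells AML1-ETO is known to form a stable complex with E proteins, LYL1, LMO2 and LDB1. ERG and FLI1 bind ETS motifs and are known to occupy many regulatory sites of blood stem and progenitor cells together with RUNX1, TAL1, LYL1, LMO2 and GATA2.

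The 9 genes fell into 3 kinds of pattern. TCF3, LMO2, LDB1 and LYL1 carried regions called in every single-antibody list and held 92 of the 104 single-antibody peaks found at the 9 genes. TCF12, FLI1 and ERG had a dual-antibody site in 1 condition only: TCF12 and FLI1 in control, ERG in knockdown. TCF4 and TAL1 had no peak in any list. Among all protein-coding genes, 35.1% had a peak of the shared list and 58.4% a peak of some single-antibody list. The share of all genes with a dual-antibody site in 1 condition only was not computed, and the 92 of 104 peaks were not set against other genes.

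Promoter sequences are shown for some of the starts at or beside these genes, chosen by the peak calls there. Each is the 250 bases before a transcription start as listed by RefSeq (GRCh38.p14), read 5′ to 3′ on the strand of the gene, and capitals mark the RUNX core hexamers TGTGGT or TGCGGT on either strand. The first lies in the widest peak at any of the 9 genes, at the LYL1 start (chr19:13102859-13103108, minus strand). The second is the TCF12 start beside the control-unique site (chr15:56917840-56918089, plus strand). Another listed TCF12 start lies inside that site and is not shown. The third is the start of SENCR, a long noncoding RNA gene inside FLI1, which lies within the control-unique FLI1 site (chr11:128696024-128696273, minus strand). The fourth is the start of the noncoding gene LOC105376621 beside LMO2, within the widest LMO2 peak (chr11:33893696-33893945, plus strand). The last is a TAL1 start with no peak in any list (chr1:47231716-47231965, minus strand).
LYL1: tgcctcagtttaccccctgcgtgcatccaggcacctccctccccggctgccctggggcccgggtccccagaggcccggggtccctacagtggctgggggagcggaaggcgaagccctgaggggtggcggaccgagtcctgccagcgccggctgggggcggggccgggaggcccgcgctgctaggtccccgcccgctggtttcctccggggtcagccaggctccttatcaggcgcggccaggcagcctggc
TCF12: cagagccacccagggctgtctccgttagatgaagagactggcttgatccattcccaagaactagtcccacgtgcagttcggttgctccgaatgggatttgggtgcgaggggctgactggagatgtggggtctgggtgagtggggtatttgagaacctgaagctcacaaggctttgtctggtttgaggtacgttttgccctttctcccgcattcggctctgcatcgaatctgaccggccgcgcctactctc
SENCR: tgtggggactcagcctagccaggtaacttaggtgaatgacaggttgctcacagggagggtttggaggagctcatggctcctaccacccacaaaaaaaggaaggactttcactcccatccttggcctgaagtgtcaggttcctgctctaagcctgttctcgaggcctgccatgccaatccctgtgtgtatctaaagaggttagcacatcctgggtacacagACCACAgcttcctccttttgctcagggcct
LOC105376621: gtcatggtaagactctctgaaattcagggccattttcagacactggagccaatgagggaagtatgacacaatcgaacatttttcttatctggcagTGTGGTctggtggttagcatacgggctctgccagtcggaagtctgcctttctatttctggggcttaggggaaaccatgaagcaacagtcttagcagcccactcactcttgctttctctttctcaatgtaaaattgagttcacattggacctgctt
TAL1: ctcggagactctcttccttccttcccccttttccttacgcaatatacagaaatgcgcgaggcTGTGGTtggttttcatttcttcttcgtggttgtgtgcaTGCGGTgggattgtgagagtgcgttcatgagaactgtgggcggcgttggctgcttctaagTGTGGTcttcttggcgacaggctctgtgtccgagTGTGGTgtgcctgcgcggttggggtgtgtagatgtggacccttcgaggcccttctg

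The TAL1 window shown held 4 RUNX hexamers and no peak. The other listed TAL1 window, at the 5′ end of the gene, held no RUNX hexamer and no peak. The LYL1 and TCF12 windows held none, and the SENCR and LOC105376621 windows held 1 each. The RefSeq table listed 24 start windows of 300 bases (250 before and 50 after the start) for 7 of the 9 genes; LMO2 and FLI1 had no entry. A peak of any single-antibody list overlapped 6 of the 24, of which 0 held TGTGGT or TGCGGT. Of the other 18, 1 did, which was the TAL1 window shown. Among all 35116 windows of that length 19.6% held the hexamer on either strand, and among the 7138 windows with a control dual-antibody peak 23.3% did. The E-box CANNTG was in 1 of the 6 windows with a peak and 13 of the 18 without, against 68.7% of all windows. GGAA, the core of the ETS motif, was in 5 of the 6 and 18 of the 18, against 95.5% of all windows. The GATA factor motif GATAA was in 1 of the 6 and 5 of the 18, against 22.7% of all windows. The longer ETS form CCGGAAGT, which contains the core above, was found in none of the 24 windows, against 4.14% of all windows. The E-box form CAGCTG, also counted in the general form, was found in none of the 24, against 17.9% of all windows. The windows were not independent: TCF4 gave 10 of the 24, all without a peak, TCF12 gave 5 and ERG 4. Those with a peak came from TCF3, TCF12, LDB1 and LYL1 only, with several TCF12 windows on the same merged region. A motif difference between windows with and without a peak was not tested. These matches describe the letters of these windows only, and most peaks at the 9 genes lay outside them.

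The plot of peak numbers by gene sets the 4 single-antibody lists side by side. In control, 6 of the 9 genes had an anti-ETO peak and 6 an anti-Flag peak, against 47.6% and 50.2% of all protein-coding genes. In knockdown, 7 had an anti-ETO peak and 5 an anti-Flag peak, against 53.8% and 42.2%. A peak of any single-antibody list was present at 7 of the 9 genes and at 58.4% of all. Over the 9 genes the control anti-ETO list held 17 peaks, the control anti-Flag list 26, the knockdown anti-ETO list 31 and the knockdown anti-Flag list 30. The ratio of knockdown to control was thus 1.82 for anti-ETO and 1.15 for anti-Flag, beside 1.58 and 1.12 for the whole lists. The anti-Flag direction depended on the flanks: within the gene bodies alone there were 17 control and 14 knockdown anti-Flag peaks.

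**Figure D1:**
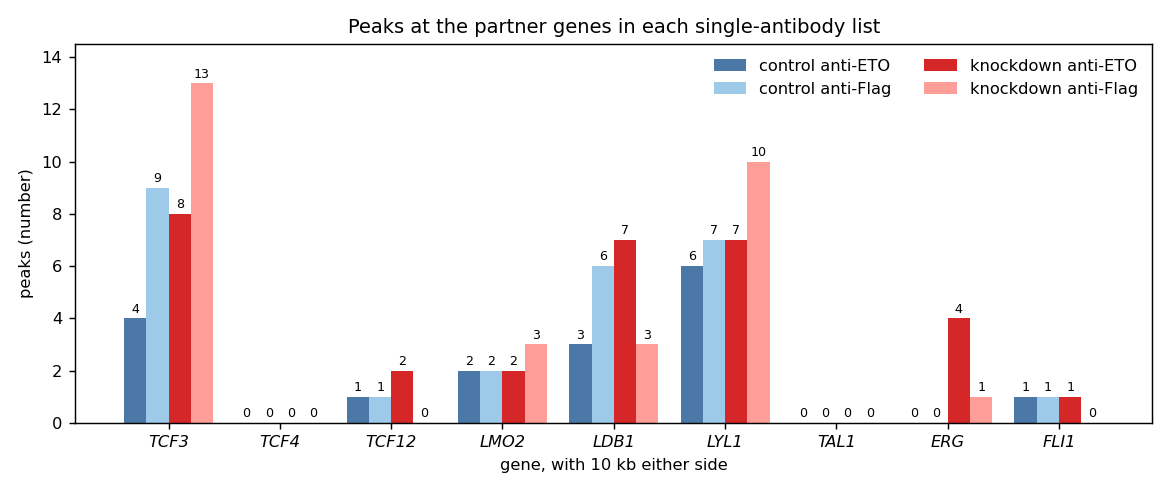
Number of peaks (vertical axis) at each of the 9 genes with 10 kb either side, in the 4 single-antibody lists (bars, 1 list per antibody and condition, no replicate values). TCF3 and LYL1 carry the most peaks, up to 13 and 10 in the knockdown anti-Flag list, TCF4 and TAL1 stand at 0 in every list, and ERG has peaks in the knockdown lists only.

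Dual-antibody peaks were found at 6 of the 9 genes in control (TCF3, TCF12, LMO2, LDB1, LYL1 and FLI1) and at 5 in knockdown (TCF3, LMO2, LDB1, LYL1 and ERG). The shares among all protein-coding genes were 43.8% and 39.4%. The shared list reached 4 of the 9 genes, against 35.1% of all. The control-unique list reached 3 (TCF12, LDB1 and FLI1), against 16.9%, and the knockdown-unique list 3 (TCF3, LDB1 and ERG), against 18.4%. With 9 genes these counts are a description and were not tested against the shares of all genes. Among genes under 50 kb long, the class of TCF3, LMO2, LDB1, LYL1 and TAL1, 44.1% had a control dual-antibody peak, and 4 of these 5 did. Among genes of 100 kb or more, the class of TCF4, TCF12, ERG and FLI1, 41.0% did, and 2 of these 4 did.

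Of the 9 gene windows, that of LYL1, a helix-loop-helix partner of E proteins, held the most peaks per kb. The gene is 3826 bp long (chr19:13099033-13102858, minus strand), and its window held 6 control anti-ETO, 7 control anti-Flag, 7 knockdown anti-ETO and 10 knockdown anti-Flag peaks. That is 126 peaks per 100 kb of window over the 4 lists, and 98.9% of protein-coding genes had a lower density (median 2.82). This density counts a site once for each list that called it. Most of the peaks behind it lay in the neighbouring genes NFIX and TRMT1, so it describes the window and not LYL1 alone. Chromosome 19, which holds LYL1 and TCF3, was rich in peaks throughout: 60.2% of its protein-coding genes had a control dual-antibody peak.

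The LYL1 window held 5 dual-antibody intervals in control and 5 in knockdown, and all 5 merged into the shared list with none unique to a condition. Among all protein-coding genes, 3.01% had at least 5 control dual-antibody peaks, a threshold set at the LYL1 count. The widest shared interval, 4202 bp (chr19:13102324-13106525), covered the LYL1 start and reached past it into the noncoding gene LOC105372282 and the end of TRMT1, which codes for a tRNA methyltransferase. At this site the single-antibody peaks were 3525 bp in control anti-ETO, 4202 bp in control anti-Flag, 3555 bp in knockdown anti-ETO and 3547 bp in knockdown anti-Flag. The 4 calls began between positions 13102324 and 13102353, 3 of them ended between 13105863 and 13105899, and control anti-Flag alone reached 13106525. Inside the gene, intervals of 1615 bp (chr19:13099600-13101214) and 278 bp (chr19:13101368-13101645) were called in all 4 lists.

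On the side of the LYL1 gene end, 2 further shared intervals of 3323 bp (chr19:13094902-13098224) and 907 bp (chr19:13093693-13094599) lay in the neighbouring gene NFIX, a nuclear factor I family member, and only the 10 kb window ties them to LYL1. The remaining 5 of the 10 merged regions at LYL1 lay in NFIX or TRMT1. Of these, 4 were called in a single list and 1 was called by anti-Flag in both conditions. Anti-ETO peaks at LYL1 covered 7218 bp in control and 9975 bp in knockdown, and anti-Flag peaks covered 8900 bp and 8467 bp.

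LMO2, the bridging protein, showed the closest match between lists. The gene (chr11:33858576-33892076) carried 2 regions, and each was called in all 4 lists. The inner one spanned 1076 bp (chr11:33870027-33871102), with single-antibody peaks of 1044 and 1071 bp in control (anti-ETO, anti-Flag) and of 1074 and 613 bp in knockdown. The outer one spanned 3531 bp (chr11:33891565-33895095) across the upper-coordinate end of LMO2 and the start of LOC105376621. It was a single peak of 3343, 3469 and 3508 bp in control anti-ETO, control anti-Flag and knockdown anti-ETO, and 2 peaks of 1448 and 1733 bp in knockdown anti-Flag. Control and knockdown anti-ETO peaks at LMO2 shared 94.8% of their joint bases, and anti-Flag peaks shared 82.9%. Over the whole lists these shares were 50.5% and 42.4%.

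Shared peaks of 3 kb or more were present at LYL1 and LMO2, 2 of the 9 genes, and at 2.99% of all protein-coding genes. They numbered 3 of the 13 shared peaks at the 9 genes.

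TCF3, the E protein gene on chromosome 19 (chr19:1609292-1652615, minus strand), had 4 control anti-ETO, 9 control anti-Flag, 8 knockdown anti-ETO and 13 knockdown anti-Flag peaks. Its dual-antibody peaks numbered 4 in control and 8 in knockdown. Among all protein-coding genes, 1.53% had at least 8 in knockdown, a threshold set at the TCF3 count. Part of the higher knockdown number was a split: the site upstream of the start, 745 bp wide in control (chr19:1652651-1653395), was called as intervals of 263 and 305 bp in knockdown, and the site inside the start, 1804 bp in control, as intervals of 319 and 1387 bp.

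TCF3 held 11 merged regions, of which 4 were called in every single-antibody list. They flanked both ends of the gene: 1874 bp (chr19:1650373-1652246) and 745 bp on either side of the start, 1840 bp (chr19:1608412-1610251) across the gene end, and 1515 bp (chr19:1605003-1606517) at the start of UQCR11, a neighbouring gene for a respiratory chain subunit. The TCF3 start itself lay between the first 2, and the listed window overlapped the 745-bp region. There were 2 knockdown-unique peaks deep in the gene body. The nearer to the gene end, of 407 bp (chr19:1613123-1613529), had no control call by either antibody, the nearest control anti-Flag peak being 1772 bp away. The other, of 473 bp (chr19:1624383-1624855), overlapped a control anti-Flag peak over 183 bp and had no control anti-ETO call. Upstream of TCF3, 4 regions of 300 to 677 bp were called by anti-Flag only, 2 of them in both conditions.

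LDB1, the partner of LMO2, lies on chromosome 10 (chr10:102102088-102121442, minus strand) with its upper-coordinate end inside the listed span of PPRC1. It had 3 control anti-ETO, 6 control anti-Flag, 7 knockdown anti-ETO and 3 knockdown anti-Flag peaks. The knockdown number was thus higher for anti-ETO and lower for anti-Flag. The covered length went the same way, from 2205 to 4070 bp for anti-ETO and from 3846 to 2359 bp for anti-Flag. All 8 merged regions lay between 12.421 and 19.769 kb from the lower-coordinate end of LDB1, and 2 of them, of 1320 bp (chr10:102117071-102118390) and 1249 bp (chr10:102119957-102121205), were called in all 4 lists.

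Between those 2 regions lay the control-unique LDB1 peak of 937 bp (chr10:102118692-102119628). In knockdown it had an anti-ETO call of 237 bp (chr10:102118995-102119231), which shared no bases with the control anti-ETO peak (chr10:102119441-102119624). It had no knockdown anti-Flag call, the nearest being 301 bp away. The knockdown-unique LDB1 peak of 440 bp (chr10:102121418-102121857) crossed the upper-coordinate, 5′ boundary of the gene, with no control call and control peaks 226 bp (anti-ETO) and 212 bp (anti-Flag) away. LDB1 was the only one of the 9 genes with a unique peak in each condition. The 300-base window of its single listed start was overlapped by a knockdown anti-ETO peak of 335 bp alone, and no peak covered the start itself.

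**Figure D2:**
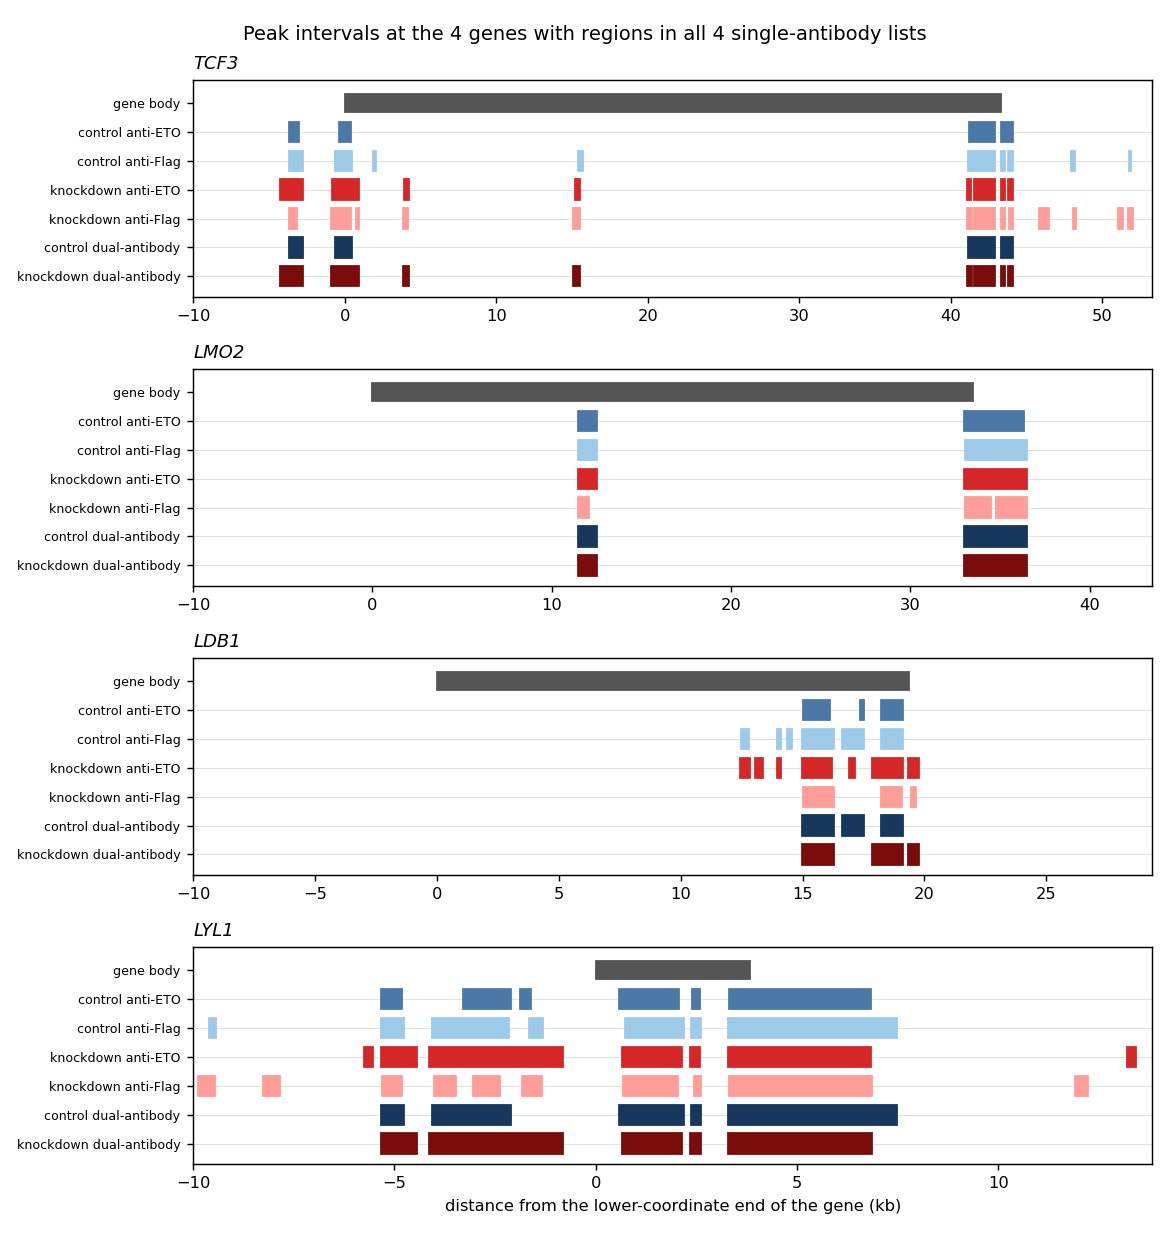
Intervals at TCF3, LMO2, LDB1 and LYL1 in the 4 single-antibody and 2 dual-antibody lists (rows), against the distance in kb from the lower-coordinate end of each gene; grey bars are gene bodies. LMO2 shows the same 2 sites in every row, LYL1 shows 5 sites in both dual-antibody rows, and TCF3 and LDB1 add narrow knockdown sites inside or at the edge of the gene.

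TCF12, which codes for HEB, had a dual-antibody site in control only. The gene is 373 kb long (chr15:56918090-57291310, plus strand), and its only region was a 935-bp stretch at the start (chr15:56917937-56918871) that also covers the start of the divergent noncoding gene TCF12-DT. The control anti-ETO peak was 689 bp and the control anti-Flag peak 355 bp, giving a control-unique interval of 743 bp (chr15:56918129-56918871), wider than 84.0% of control-unique peaks. In knockdown, anti-ETO peaks of 561 and 184 bp covered 553 bp of that interval, and no anti-Flag peak was called. The nearest knockdown anti-Flag peak was 673101 bp from it.

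FLI1 showed the same combination of calls, with a narrower control anti-ETO peak than TCF12 and a wider control anti-Flag peak. Its only region (chr11:128695758-128696314, 557 bp) lay inside the gene (chr11:128685132-128813267), centred 13 bp from the start of SENCR. The control peaks were 211 bp (anti-ETO) and 456 bp (anti-Flag), and the control-unique interval was 456 bp (chr11:128695859-128696314). The knockdown anti-ETO peak of 196 bp covered 95 bp of this interval and shared 0 bases with the control anti-ETO peak. No knockdown anti-Flag peak lay within 583086 bp. Both anti-ETO calls at FLI1 were thus on the same region but not on the same bases.

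ERG had no control peak within 10 kb. The gene is 295 kb long (chr21:38367261-38661783, minus strand), and the nearest control peaks lay 323 kb from its nearer end for both antibodies. In knockdown, 3 anti-ETO peaks of 346, 291 and 374 bp stood within 1.5 kb of each other in the gene body (chr21:38476083-38477577), and another of 389 bp lay at chr21:38505671-38506059. A single anti-Flag peak of 177 bp fell on the middle of the 3, which gave the knockdown-unique ERG interval of 291 bp (chr21:38476633-38476923). This interval was narrow, since only 7.99% of knockdown-unique peaks were narrower. The 3 grouped regions were centred 21086 to 22222 bp from the nearest listed ERG start, and the other region overlapped the noncoding gene LOC105372802, 2047 bp from its start.

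**Figure D3:**
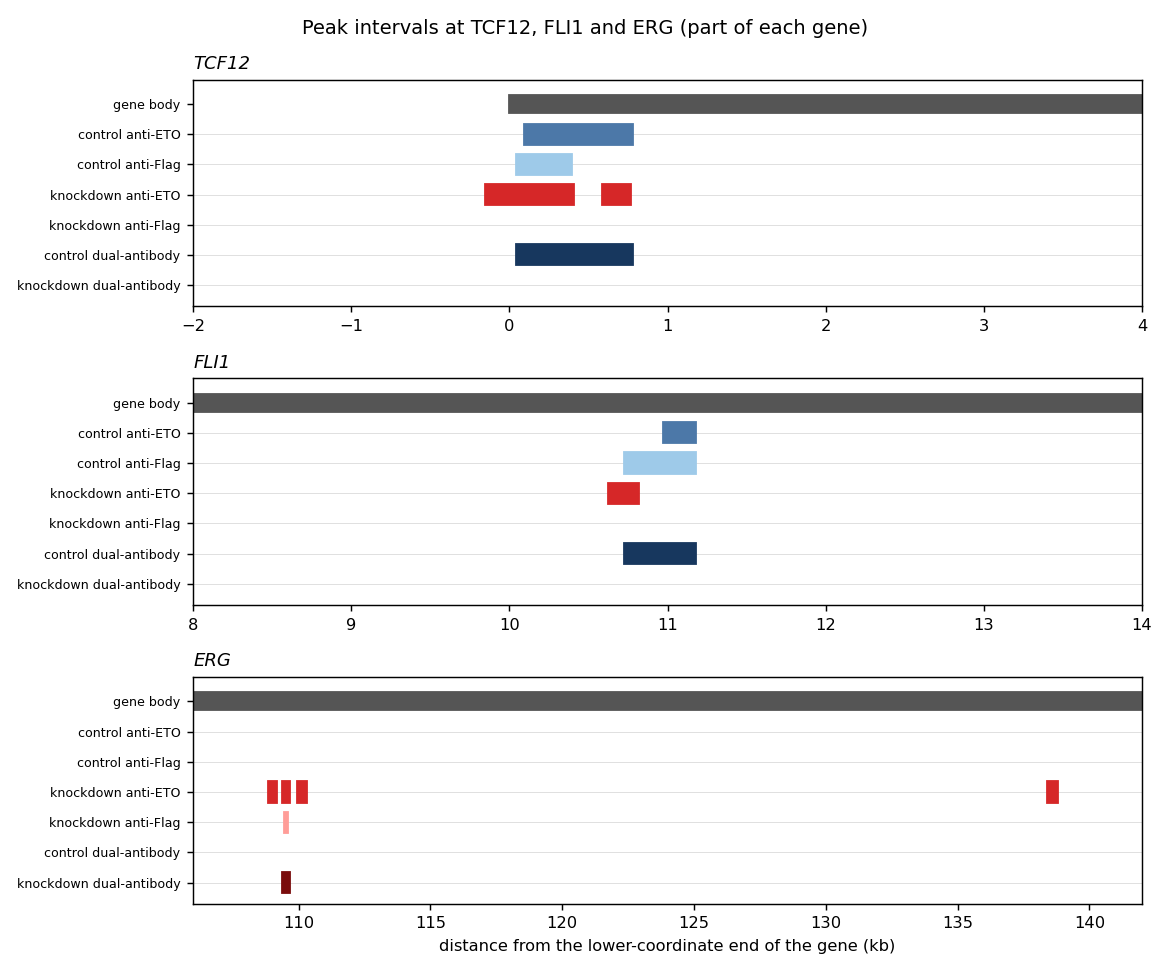
Intervals in the peak-bearing parts of TCF12, FLI1 and ERG, by list (rows), against the distance in kb from the lower-coordinate end of each gene. TCF12 and FLI1 have calls in 3 rows of single-antibody peaks and none in knockdown anti-Flag, and ERG has calls in the knockdown rows only.

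The calls behind the 7 condition-unique peaks differed in kind. All 3 control-unique peaks (TCF12, FLI1 and LDB1) had an anti-ETO call and no anti-Flag call in knockdown, the class of 74.7% of all control-unique peaks. Of the 4 knockdown-unique peaks, 3 (LDB1, ERG and the 407-bp peak of TCF3) had no control call, against 38.1% of all knockdown-unique peaks. The other, in TCF3, had a control anti-Flag call only, against 55.1%. With 3 and 4 peaks these shares are descriptions.

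List length touched these sites unequally. Shortening the knockdown lists to the control lengths by keeping the widest peaks removed anti-ETO peaks under 381 bp. ERG then kept 1 anti-ETO peak, no anti-Flag peak and no dual-antibody site, and FLI1 kept no knockdown peak. At TCF3 the knockdown anti-ETO peaks fell from 8 to 3, all on anti-Flag peaks, beside 4 in control. The anti-ETO peaks behind its 2 knockdown-unique sites, of 303 and 371 bp, were removed. At LDB1 the knockdown anti-ETO peaks fell from 7 to 4, and 3 of them still lay on anti-Flag peaks. TCF12 kept 1 knockdown anti-ETO peak and still had no knockdown anti-Flag peak. At the 9 genes the knockdown anti-ETO list then held 15 peaks, below the 17 of control, whose list was kept in full down to 176 bp. With both anti-ETO lists limited to peaks of at least 381 bp, an alternative chosen after seeing the data, knockdown held 15 and control 13.

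TCF4, the remaining E protein gene, had no peak over its 414 kb (chr18:55222185-55635957). The nearest control anti-ETO peak lay 952 kb away at POLI, the nearest control anti-Flag peak 386 kb away in RAB27B and the nearest knockdown anti-ETO peak 952 kb away, again at POLI. The nearest knockdown anti-Flag peak was 1985990 bp away. TAL1 (chr1:47216290-47232335) had no peak in its window either, and the nearest peaks of all 4 lists lay 80.7 to 81.4 kb away in STIL, the gene next to TAL1. Among genes of TCF4's chromosome, 50.7% had a peak of some single-antibody list.

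The length covered by peaks differed by antibody at the 9 genes in the way it did over the whole lists, as the plot of covered length shows for the genes. Anti-ETO peaks covered 18622 bp at the 9 genes in control and 27149 bp in knockdown, a ratio of 1.46, beside 1.67 for the whole lists. The knockdown value was higher at 6 of the 7 genes with any anti-ETO peak, and among all protein-coding genes with one it was higher at 85.2% and lower at 14.4%. FLI1 was the exception, with 211 bp in control and 196 bp in knockdown. Anti-Flag peaks covered 23373 bp and 21316 bp, a ratio of 0.912, beside 0.975 for the whole lists. They covered more in knockdown at TCF3 (5276 against 6519 bp) and ERG (0 against 177 bp), and less at LMO2, LDB1, LYL1, TCF12 and FLI1. Among all protein-coding genes with an anti-Flag peak, 33.2% had more covered bases in knockdown and 66.7% had fewer, so both antibodies went the way of most genes.

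**Figure D4:**
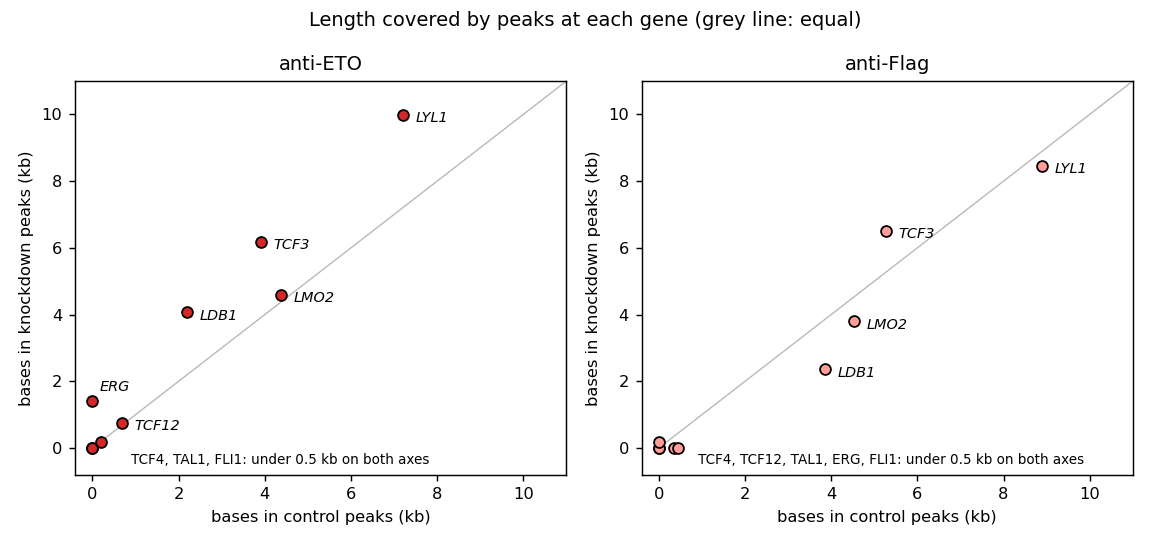
Bases covered by peaks at each gene in control (horizontal axis, kb) and knockdown (vertical axis, kb), for anti-ETO (left) and anti-Flag (right); each point is a gene and the grey line marks equal values. For anti-ETO, LYL1, TCF3, LDB1 and ERG lie above the line, and for anti-Flag LYL1, LMO2 and LDB1 lie below it.

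Bases shared between conditions were compared as a percent of the bases called in either. LYL1 came after LMO2, with 70.7% of the joint anti-ETO bases and 71.4% of the joint anti-Flag bases called in both conditions. TCF3 had 52.9% and 55.9%, and LDB1 had 47.5% and 52.2%, closer to the 50.5% and 42.4% of the whole lists. TCF12 had 53.4% for anti-ETO and FLI1 0%. Within a condition, the 2 antibodies shared 95.1% of their joint bases at LMO2 in control and 82.8% in knockdown, against 52.0% and 44.2% over the whole lists. At ERG the antibodies shared 12.6% in knockdown, since 3 of its 4 anti-ETO peaks had no anti-Flag call.

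Anti-ETO peaks at the 9 genes were 801 bp wide at the median (control) and 374 bp (knockdown), while the whole lists had 461 and 453 bp. The anti-Flag medians were 405.5 bp (control) and 467.5 bp (knockdown), beside 416 and 364 bp in the whole lists. The 13 shared intervals had a median of 1515 bp, beside 1047 bp for the shared list. At these genes the anti-ETO peaks of knockdown were thus more numerous than those of control, with a lower median width. The medians compare sets of peaks, not the same sites. The length covered by anti-ETO peaks was higher in knockdown at 6 of the 7 genes with such a peak and lower at 1.

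Merging the 4 single-antibody lists gave 37 regions at the 9 genes, of 35619 in all. Of the 37, 13 were called in all 4 lists, a share of 35.1% (95% Wilson interval 21.8 to 51.2, counting error only), against 24.8% of all regions. LYL1 held 5 of the 13, TCF3 4, LMO2 2 and LDB1 2. Regions called by knockdown anti-Flag alone made up 4 of the 37, or 10.8% (4.29 to 24.7), against 22.3% of all. Regions called by knockdown anti-ETO alone made up 6 of the 37, or 16.2% (7.65 to 31.1), against 10.3%; 3 of these were at ERG, 2 at LYL1 and 1 at LDB1. No region at the 9 genes was called by control anti-ETO alone. The Wilson interval held the value over all regions for each of these 3 classes. It treats the 37 regions as independent, although many lie at the same gene (11 at TCF3 and 10 at LYL1). A difference from all regions was not tested.

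**Figure D5:**
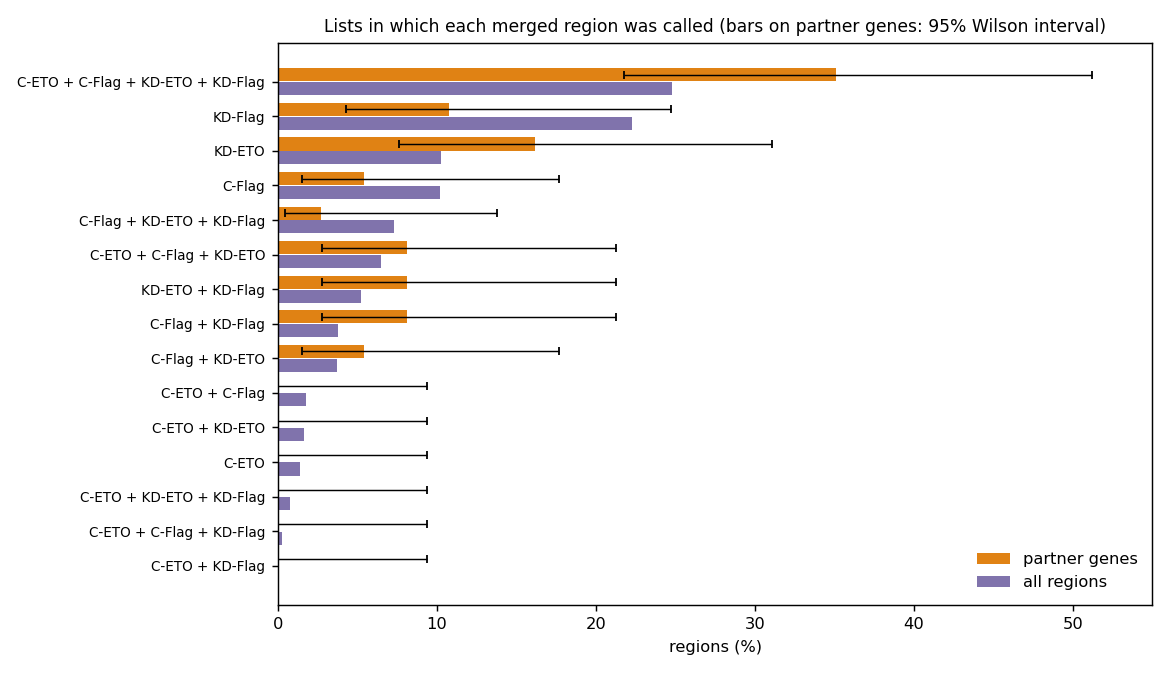
Percent of merged regions (horizontal axis) by the combination of lists that called them (rows; C is control, KD knockdown), at the 9 genes (37 regions, with 95% Wilson intervals) and over all 35619 regions. Regions in all 4 lists are the commonest class in both, at 35.1% and 24.8%.

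Regions called in more lists were wider. The 12 regions called in a single list were 171 to 677 bp wide (median 338 bp), and the 13 called in all 4 were 278 to 4202 bp wide (median 1515 bp). Over all regions the medians were 280 and 1057 bp, and merging the calls of more lists widens a region by construction. Of the 37 regions, 19 lay wholly in the body of the named gene, 5 crossed its edge and 13 lay in the flanks, and 15 overlapped another annotated gene. The centre was within 1 kb of a listed start for 8 of the 37 (21.6%), against 28.6% of all regions.

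A further 24 genes were counted in the same way: fusion and co-occupying partners, cofactors, paralogues, LDB1-binding proteins and inhibitors of helix-loop-helix factors. Dual-antibody peaks were present at 12 of them in control and 11 in knockdown, beside 43.8% and 39.4% of all protein-coding genes. A peak of some single-antibody list was present at 18 of the 24, beside 58.4% of all, and 6 had none. Among the fusion and co-occupying partners, dual-antibody peaks numbered 11 in control and 9 in knockdown at RUNX1, and 3 and 4 at CBFB, whose product pairs with RUNX1. GATA2 had only 1 knockdown anti-ETO peak, and RUNX1T1, the ETO gene, had none. Of the 8 cofactor genes, 6 had a dual-antibody peak in each condition, with 9 and 10 at CBFA2T3, an ETO paralogue. Of the paralogues of LMO2, LDB1 and TAL1, LMO1, LMO3, LDB2 and TAL2 had no peak and LMO4 had 2 knockdown anti-ETO peaks only. Of the LDB1-binding SSBP genes, SSBP4 had 9 and 12 dual-antibody peaks, and SSBP2 and SSBP3 had 1 in control and 0 in knockdown, each in the control-unique list. Among the ID genes, inhibitors of E proteins, ID1 had 3 and 1, ID2 had 0 and 1, and ID3 and ID4 had no dual-antibody peak.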

How the data were processed

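The authors' deposited files were 9 lists of peak intervals (chromosome, start, end), whose unit is other than a score or count: positions in bp. Per the submitters' processing notes, the builds hg38 and sacCer3 and the tools fastp 0.19.5, Bowtie2 2.3.5, MACS2 2.2.5 and HOMER 4.8 were used; their roles, the peak threshold, the use of IgG and the joining of replicates are not given in the sources used here. Groups and replicate numbers came from the sample titles. The 9 genes and the lists of further genes and motifs were chosen with earlier results of these data known.

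Intervals were compared in Python 3.11.15 (numpy 2.4.6, pandas 2.3.3, scipy 1.17.1, matplotlib 3.10.9), starts counted from 1, with an overlap of at least 1 bp. Overlapping or touching peaks were merged into regions. The functions recovered 1200 of 1200 overlaps planted in 2000 simulated intervals, and bedtools 2.31.1 gave the same 7 counts. RefSeq (GRCh38.p14) gave gene ends, starts and promoter sequences; exons were not used here. All 9 genes, and every shared or condition-unique peak of genes with 6 or fewer, were named. Dual-antibody peaks at shared sites were mostly given through the merged shared interval. The planned motif search in peak sequences was not run, since no genome sequence was used here. Nothing was tested over libraries. The values of 1 of the 24 further genes are not reported here.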

Additional observations from a re-analysis of the deposited data

How the results depend on the processing

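Of 67 alternative values, 46 stayed within 1.5 times the reported count or within its 95% Wilson interval, and 21 did not. The number of genes with a dual-antibody peak was 4 to 6 in control and 4 or 5 in knockdown under every alternative. Windows of 50 kb raised the peaks to 32 (control anti-ETO), 51 (control anti-Flag), 55 (knockdown anti-ETO), 83 (knockdown anti-Flag), 23 (shared), 5 (control-unique) and 11 (knockdown-unique), and regions called by knockdown anti-Flag alone to 31.5%. Gene bodies alone gave 17 control and 14 knockdown anti-Flag peaks, and 0% of regions with knockdown anti-Flag alone. The wider 50% of each list left 13 control anti-Flag, 12 knockdown anti-ETO, 19 knockdown anti-Flag and 0 knockdown-unique peaks, with 55% of regions in all 4 lists and 25.0% in knockdown anti-Flag alone. With knockdown lists shortened to control lengths, 15 knockdown anti-ETO peaks were left; with all 4 lists at the shortest length, 15 knockdown anti-ETO and 15 control anti-Flag peaks were left. With both anti-ETO lists limited to the same least width of 381 bp, an alternative chosen after seeing the data, 15 knockdown and 13 control anti-ETO peaks were left. These alternatives hold more or fewer bases or peaks by construction. Among the 6 start windows listed for these genes that had a single-antibody peak, the share with a RUNX hexamer was 0% with 300 or 250 bases. Read numbers behind a call, and so depth, were not given in these lists. No paired analysis was possible because each group had 1 list with no value per replicate, and for the same reason no library could be left out.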
